A study of Homo sapiens with 12 samples.

Results

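THBS1 and 9 other genes that are widely used as readouts of YAP (CCN1, CCN2, F3, AXL, AMOTL2, LATS2, AJUBA, ANKRD1 and TEAD1) were followed by RNA sequencing in 2 human cholangiocarcinoma cell lines. The 10 genes were listed by symbol, with earlier results of these libraries known, and all 10 were found among the 60651 genes of the count table and passed the filter on low counts in every fit. The study asked what a DNA methyltransferase inhibitor (decitabine) and a PARP inhibitor (talazoparib) do to such cells alone and together. THBS1 was among the genes the study drew as raised by the combination in these same EGI-1 libraries, so its rise there is not independent evidence. EGI-1 cells, wild type and grown in DMEM, received vehicle (DMSO), 0.5 µM decitabine, 200 nM talazoparib or both agents. HUCCT1 cells, also wild type and grown in RPMI1640, received the same vehicle or 1 µM decitabine and no talazoparib. All cells were harvested at 72 h, and each of the 6 conditions has 2 libraries, which are not stated to be separate cultures, so each p-value measures the spread between these libraries, which may be technical. The names of the talazoparib libraries carry another number than the 200 nM of the labels, and the study's sequencing methods describe EGI-1 alone.

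YAP and its relative TAZ (WWTR1) are transcriptional coactivators that bind DNA through the TEAD factors. The Hippo kinases STK3 and STK4 act through the kinases LATS1 and LATS2, which phosphorylate YAP and TAZ and keep them out of the nucleus. YAP in turn raises LATS2 and AMOTL2, which restrain it. In biliary epithelium YAP is active during repair and growth. Most YAP targets also answer to other inputs, such as SRF, AP-1 and TGF-β, so their mRNA is not a direct measure of YAP activity, and YAP protein was not measured here.

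The members fall into 4 roles. Among the secreted matrix proteins, THBS1 (ENSG00000137801.11, chr15:39581079-39599466, plus strand, GRCh38) encodes thrombospondin-1, which binds CD47 and CD36 and activates latent TGF-β. CCN1 (CYR61, chr1:85580761-85584589) and CCN2 (CTGF, chr6:131948176-131951372) encode integrin-binding matricellular proteins. At the cell surface, F3 (chr1:94529173-94541759) is tissue factor, the starter of blood clotting, and AXL (chr19:41219223-41261766) is a receptor tyrosine kinase for GAS6. AMOTL2 (chr3:134355347-134375479), LATS2 (chr13:20973036-21061586) and AJUBA (chr14:22971177-22982551) act on the Hippo pathway as a YAP-binding scaffold, a YAP kinase and an inhibitor of the LATS kinases. ANKRD1 (chr10:90912096-90921087) is an ankyrin repeat cofactor in the nucleus and sarcomere, and TEAD1 (chr11:12674421-12944737) is one of the DNA-binding partners of YAP.

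The bases before the start of THBS1, CCN2 and ANKRD1 are shown because these genes moved apart from each other in the results below. The TEAD site searched was GGAATG, and the AP-1 site was TGANTCA, both on either strand. A match was found in 14% (TEAD) and 7.71% (AP-1) of all 35116 RefSeq promoter windows, each of which holds 250 bases before and 50 after a start. The 250 bases before the start follow, 5′ to 3′ on the gene's strand (RefSeq, GRCh38.p14), with matches to either site in capitals.
THBS1, chr15:39580829-39581078, plus strand: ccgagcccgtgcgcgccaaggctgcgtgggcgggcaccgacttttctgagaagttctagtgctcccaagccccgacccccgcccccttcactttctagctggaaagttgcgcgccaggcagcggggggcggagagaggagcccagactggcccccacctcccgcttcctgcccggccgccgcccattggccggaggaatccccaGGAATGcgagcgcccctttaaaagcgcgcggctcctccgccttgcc
CCN2, chr6:131951373-131951622, minus strand: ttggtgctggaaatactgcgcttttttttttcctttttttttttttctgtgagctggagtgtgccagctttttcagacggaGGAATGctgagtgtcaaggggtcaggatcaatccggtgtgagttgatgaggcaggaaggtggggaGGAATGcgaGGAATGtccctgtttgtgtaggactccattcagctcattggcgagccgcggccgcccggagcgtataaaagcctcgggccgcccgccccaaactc
ANKRD1, chr10:90921088-90921337, minus strand: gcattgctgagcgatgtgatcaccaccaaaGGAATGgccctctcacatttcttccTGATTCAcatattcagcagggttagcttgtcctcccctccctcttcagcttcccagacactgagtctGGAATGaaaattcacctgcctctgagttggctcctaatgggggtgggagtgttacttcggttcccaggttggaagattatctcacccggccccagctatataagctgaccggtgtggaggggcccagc

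CCN2 held 3 matches to the TEAD site, at -169, -104 and -95 from the start, ANKRD1 held 2, at -220 and -128, and THBS1 held 1, at -46. ANKRD1 also held 1 match to the AP-1 site, at -195. Of the 8 members with a window in the table, which have 11 windows between them, LATS2 held 1 TEAD match, AXL, AMOTL2 and AJUBA held 1 each in 1 of their 2 windows, and F3 held 2 AP-1 matches and no TEAD match. CCN1 and TEAD1 had no window. No member's window held a CArG box, the binding site of SRF, which 1.29% of all windows held. The window of THBS1 held 29 CpG dinucleotides and that of CCN2 held 15, against a median of 14 over all windows, while the window of ANKRD1 held 5. A match to these letters is a description of the sequence and not a measured binding site.

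The libraries held 23139065 to 33181930 counts in EGI-1 and 32519985 to 34965627 in HUCCT1. The 7 epithelial markers (EPCAM, KRT7, KRT8, KRT18, KRT19, SOX9 and CDH1) were expressed in every library. One library stood apart: the EGI-1 combination replicate 2 had 381 counts of PTPRC and 148 of CD3E, where no other EGI-1 library had more than 7 and 4, and its 3 leukocyte markers summed to 17.7 CPM against at most 0.602 in the other EGI-1 libraries. The epithelial markers summed to 9179 CPM there and 9280 CPM in replicate 1. Their part in the results was not tested, and values without this library are given beside the calls on the members and lists that it enters. The likeness to THBS1 at the end was not computed without it.

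In vehicle, the levels of the members differed widely between the lines. Levels are given as CPM, the counts of a gene as a share of all counts in its library and scaled to a common total, with TMM factors over the 12 libraries, and levels of different genes are compared per kilobase of exon. In HUCCT1 vehicle, THBS1 stood at 2370 ± 9.66 CPM per kilobase (SD, n = 2), followed by F3 at 508 ± 20.4, CCN1 at 402 ± 39.9 and AXL at 245 ± 11.6, and LATS2 was the lowest member at 16.3 ± 2.04. In EGI-1 vehicle, F3 led at 159 ± 2.20 CPM per kilobase, ahead of THBS1 at 130 ± 2.80 and AXL at 100.5 ± 0.00802, and LATS2 was again the lowest at 4.75 ± 0.0518. THBS1 alone took 1.95% and 1.87% of all counts in the HUCCT1 vehicle libraries, and 0.128% and 0.125% in the EGI-1 vehicle libraries.

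**Figure D1:**
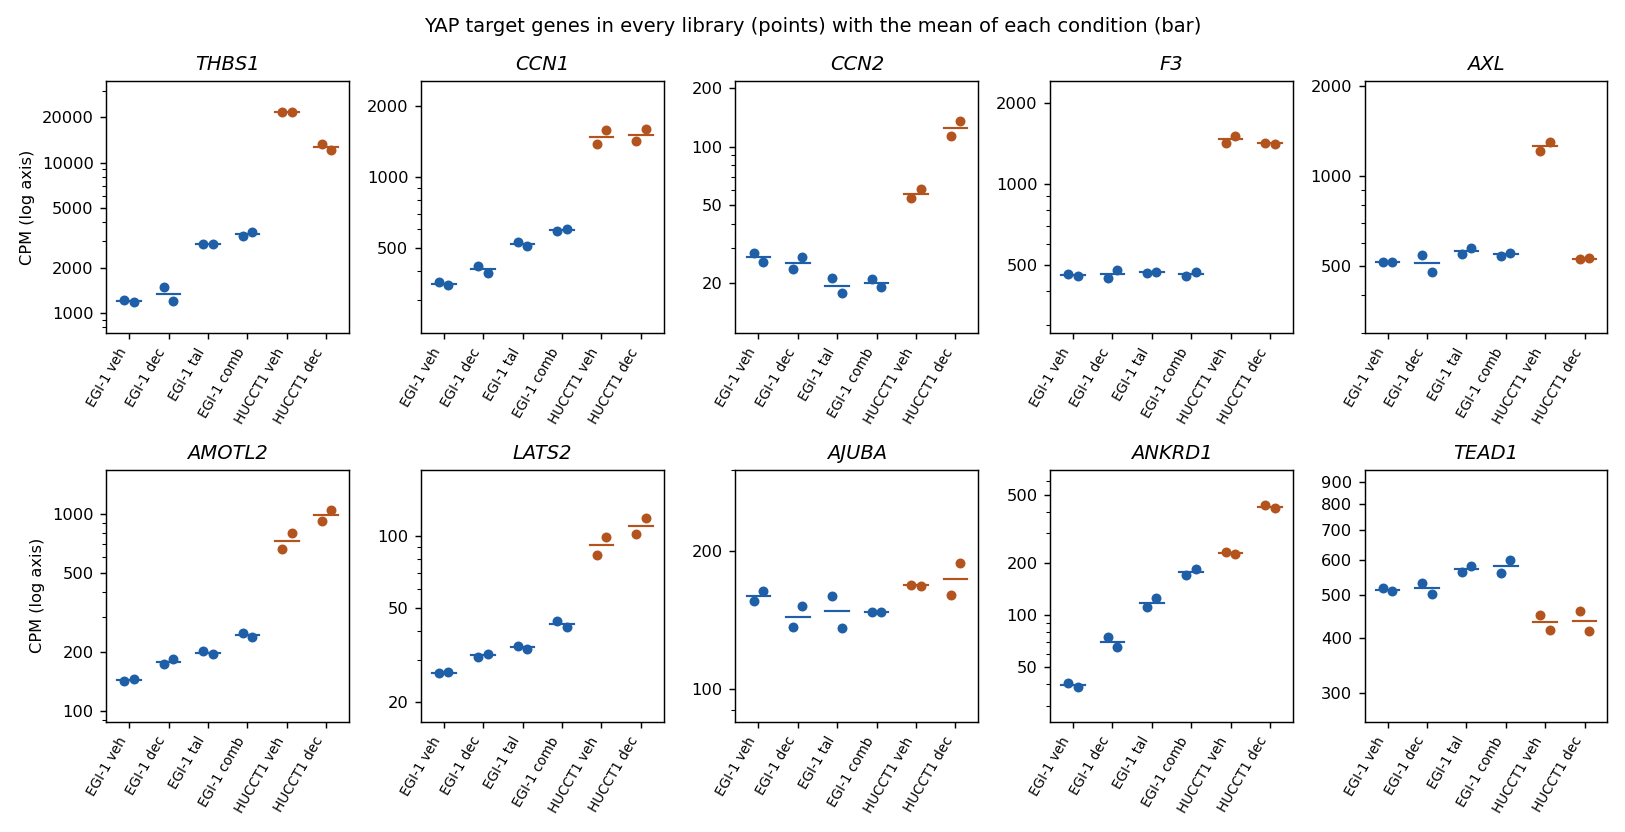
Level of each of the 10 genes in CPM (log axis, a different range in each panel) in all 12 libraries. Points are single libraries and bars are the mean of 2. EGI-1 conditions are blue and HUCCT1 conditions brown. THBS1, CCN1, CCN2, F3, AMOTL2, LATS2 and ANKRD1 stood higher in every HUCCT1 library than in every EGI-1 library, TEAD1 stood lower, and AXL in HUCCT1 came down to the EGI-1 range under decitabine.

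Compared with EGI-1 vehicle, 8 of the 10 members were higher in HUCCT1 vehicle, 1 was lower and 1 did not pass the test (edgeR's quasi-likelihood test, adjusted p under 0.05). Of all 25082 genes tested, 55.9% passed in this comparison, 28.5% higher and 27.3% lower. With upper-quartile factors the median log2 difference over all genes moved from -0.01 to -0.13, and the calls of the members kept their direction. THBS1 was 21760 and 21640 CPM in HUCCT1 vehicle and 1209 and 1173 CPM in EGI-1 vehicle, an 18.2-fold difference (log2 difference 4.19 ± 0.09 SE, adjusted p = 9.06e-20). ANKRD1 was 5.79-fold, AMOTL2 5.05-fold, CCN1 4.21-fold, LATS2 3.44-fold, F3 3.20-fold, AXL 2.44-fold and CCN2 2.12-fold higher. TEAD1 was lower, with a log2 difference of -0.24 ± 0.07 SE (adjusted p = 0.00761), and AJUBA differed by 0.08 (95% confidence interval -0.11 to 0.26). Without HUCCT1 vehicle replicate 2 the difference of TEAD1 was -0.19 (adjusted p = 0.0679). Of a list of 8 genes (YAP1, WWTR1, TEAD2, TEAD3, TEAD4, VGLL1, VGLL3 and VGLL4), 5 were higher in HUCCT1 and 1 was lower. YAP1 was 1.28-fold and WWTR1 1.80-fold higher in HUCCT1, and TEAD4 was 3.03-fold higher. VGLL3 was at least 316-fold higher over a floor of 3 counts per library. Line, culture medium and a code in the library names that may be the sequencing lane cannot be told apart in this comparison.

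In EGI-1, the combination raised 6 of the 10 members and lowered 1. The rise was led by ANKRD1 and THBS1, went through CCN1, AMOTL2 and LATS2, and left F3, AXL and AJUBA without a call, while CCN2 fell. Of all 22393 genes tested, 18.7% passed in this comparison, 11.1% higher and 7.62% lower. These are 2489 genes higher and 1706 lower, against 2180 and 2243 with upper-quartile factors. In bulk libraries a change in the share of cells that express a gene and a change in RNA per cell cannot be told apart. The median log2 fold change was 0.42 over the 10 members and -0.02 over all genes.

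Some markers of other cells and of epithelium moved with the combination too. The 7 epithelial markers summed to 8320 and 8348 CPM in EGI-1 vehicle and 9280 and 9179 CPM with the combination. The 5 fibroblast markers listed below summed to 0.0985 and 0.360 CPM in vehicle and 0.491 and 0.296 CPM with the combination. The 3 hepatocyte markers summed to 0.0657 and 0.108 CPM in vehicle and 0.164 and 0.0329 CPM with the combination. In both of these sums the arms overlapped. The 3 endothelial markers (PECAM1, CDH5 and VWF) summed to 19.7 and 21.2 CPM in EGI-1 vehicle and 28.6 and 29.8 CPM with the combination. VWF went from 2.00 and 2.16 CPM to 7.40 and 5.70 CPM and CDH5 from 14.0 and 15.04 CPM to 17.8 and 19.7 CPM, both of which passed, and PECAM1 did not. A list of 12 T cell markers, drawn up after seeing the data, summed to 2.99 and 3.89 CPM in vehicle and 7.81 and 36.2 CPM with the combination. SOX9, a factor of biliary cells, rose from 132 and 141 CPM to 263 and 262 CPM (log2 fold change 0.93, adjusted p = 7.14e-09), and KRT7 rose by 0.70 and KRT8 by 0.18. The part of these genes in the results on the members was not tested. Without combination replicate 2, the log2 fold changes over vehicle were 1.44 for THBS1, 0.74 for CCN1, 0.79 for AMOTL2, 0.71 for LATS2 and 2.11 for ANKRD1, and these 5 of the 10 members passed (adjusted p from 2.94e-09 to 0.000139). The values of the other 5 without it were -0.37 for CCN2, -0.02 for F3, 0.06 for AXL, -0.12 for AJUBA and 0.12 for TEAD1.

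THBS1 was 1209 and 1173 CPM in the EGI-1 vehicle libraries, 1480 and 1205 CPM with decitabine, 2886 and 2875 CPM with talazoparib, and 3243 and 3450 CPM with the combination. Both talazoparib libraries lay above every vehicle and decitabine library, both combination libraries lay above both talazoparib libraries, and decitabine overlapped vehicle. Here and below, arms that do not overlap are a description, since the share of all genes without overlap was not computed. THBS1 rose 2.42-fold with talazoparib (log2 fold change 1.28 ± 0.08 SE, adjusted p = 1.42e-06) and 2.80-fold with the combination (1.48 ± 0.08, adjusted p = 4.29e-08). With decitabine alone the log2 fold change of THBS1 was 0.18 ± 0.08 (adjusted p = 0.482). Without decitabine replicate 2, THBS1 passed with a log2 fold change of 0.32 (adjusted p = 0.000958), and without decitabine replicate 1 it was 0.02. The combination exceeded decitabine by 1.30 on the log2 scale (adjusted p = 3.05e-07) and differed from talazoparib by 0.21 ± 0.08 (95% confidence interval 0.04 to 0.37, adjusted p = 0.242). The difference from talazoparib passed in 4 of 17 alternatives, with adjusted p from 0.00296 to 0.0277, among them the fits without decitabine replicate 1 or decitabine replicate 2.

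Some exons of THBS1 share 859 bases with genes on the opposite strand, THBS1-AS1 and FSIP1, and the use of strand in counting is not stated. THBS1-AS1 had at most 2 counts and FSIP1 at most 29 in any library, against 32584 counts or more of THBS1. Of the other members, CCN2 shares 278 exon bases with LINC01013, and AXL 67 with another gene, both on the opposite strand. AMOTL2 shares 187 and AJUBA 50 exon bases with a gene on the same strand. The part of these overlaps in the results was not tested.

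The other secreted members went in opposite directions. CCN1 was 357 and 348 CPM in vehicle, 421 and 392 CPM with decitabine, 532 and 508 CPM with talazoparib, and 593 and 602 CPM with the combination. The 4 arms of CCN1 did not overlap, but 2 of the steps between them did not pass by edgeR. These were decitabine against vehicle (0.21, adjusted p = 0.112) and the combination against talazoparib (0.19, adjusted p = 0.0959). It rose 1.48-fold with talazoparib (log2 fold change 0.56 ± 0.05 SE, adjusted p = 1.08e-05) and 1.68-fold with the combination (0.75 ± 0.05, adjusted p = 4.00e-08). CCN2 was 28.5 and 25.6 CPM in vehicle, 23.6 and 27.1 CPM with decitabine, 21.0 and 17.6 CPM with talazoparib, and 21.0 and 19.0 CPM with the combination. All 4 libraries with talazoparib were lower in CCN2 than all 4 without it. CCN2 fell by 0.49 ± 0.11 on the log2 scale with talazoparib (adjusted p = 0.0127) and by 0.45 ± 0.11 with the combination (adjusted p = 0.00734). The fall under the combination did not pass without combination replicate 2 (-0.37, adjusted p = 0.0956) or without vehicle replicate 1 (-0.37, adjusted p = 0.131), and under talazoparib it did not pass without either vehicle library or without talazoparib replicate 2 (-0.36 to -0.57, adjusted p = 0.062 to 0.26). Of the upstream sequences shown above, that of CCN2 held the most TEAD matches, and a link between these matches and its fall was not tested.

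At the cell surface, F3 was 462 and 453 CPM in EGI-1 vehicle and between 447 and 478 CPM in the 6 treated libraries. Its log2 fold change with the combination was 0.00 (95% confidence interval -0.11 to 0.12). AXL was 516 CPM in both vehicle libraries and between 478 and 575 CPM in the treated ones, with a log2 fold change of 0.08 with the combination (-0.05 to 0.21). Neither gene passed in any of the EGI-1 comparisons.

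The Hippo regulators AMOTL2 and LATS2 climbed in the same order of arms. AMOTL2 was 142 and 146 CPM in vehicle, 173 and 184 CPM with decitabine, 201 and 196 CPM with talazoparib, and 250 and 236 CPM with the combination. LATS2 was 26.4 and 26.8 CPM in vehicle, 31.0 and 31.9 CPM with decitabine, 34.6 and 33.6 CPM with talazoparib, and 43.7 and 41.6 CPM with the combination. In both genes no arm overlapped another, but LATS2 with decitabine did not pass by edgeR (0.25, adjusted p = 0.2425). With the combination AMOTL2 rose 1.68-fold (log2 fold change 0.75 ± 0.06 SE, adjusted p = 1.18e-07) and LATS2 rose 1.59-fold (0.67 ± 0.08, adjusted p = 9.41e-06). With talazoparib the rises were 0.46 ± 0.06 (adjusted p = 0.000155) and 0.36 ± 0.08 (adjusted p = 0.0115) on the log2 scale, and that of LATS2 did not pass in 4 of the 8 fits that each left out 1 EGI-1 library, those without either vehicle or either talazoparib library (adjusted p up to 0.197). AJUBA was 156 and 163.2 CPM in vehicle and 147 CPM in both combination libraries (log2 fold change -0.13, 95% confidence interval -0.28 to 0.03).

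In the nucleus, ANKRD1 showed the largest fold change of the 10 members in each arm. It was 40.8 and 38.6 CPM in vehicle, 74.96 and 65.7 CPM with decitabine, 112 and 126 CPM with talazoparib, and 172 and 186 CPM with the combination. The 4 arms did not overlap. ANKRD1 rose 1.78-fold with decitabine (log2 fold change 0.83 ± 0.08 SE, adjusted p = 7.36e-05), 2.998-fold with talazoparib (1.58 ± 0.08, adjusted p = 8.13e-09) and 4.48-fold with the combination (2.17 ± 0.08, adjusted p = 2.98e-11). TEAD1 was 518 and 510 CPM in vehicle and 561 and 599 CPM with the combination, a log2 fold change of 0.17 ± 0.05 (adjusted p = 0.0416). Without combination replicate 2 that of TEAD1 was 0.12 (adjusted p = 0.304), and it did not pass in 5 of the 8 fits that each left out 1 EGI-1 library, the others being those without either vehicle (adjusted p = 0.187 and 0.258) or either talazoparib library (0.0502 and 0.0565).

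**Figure D2:**
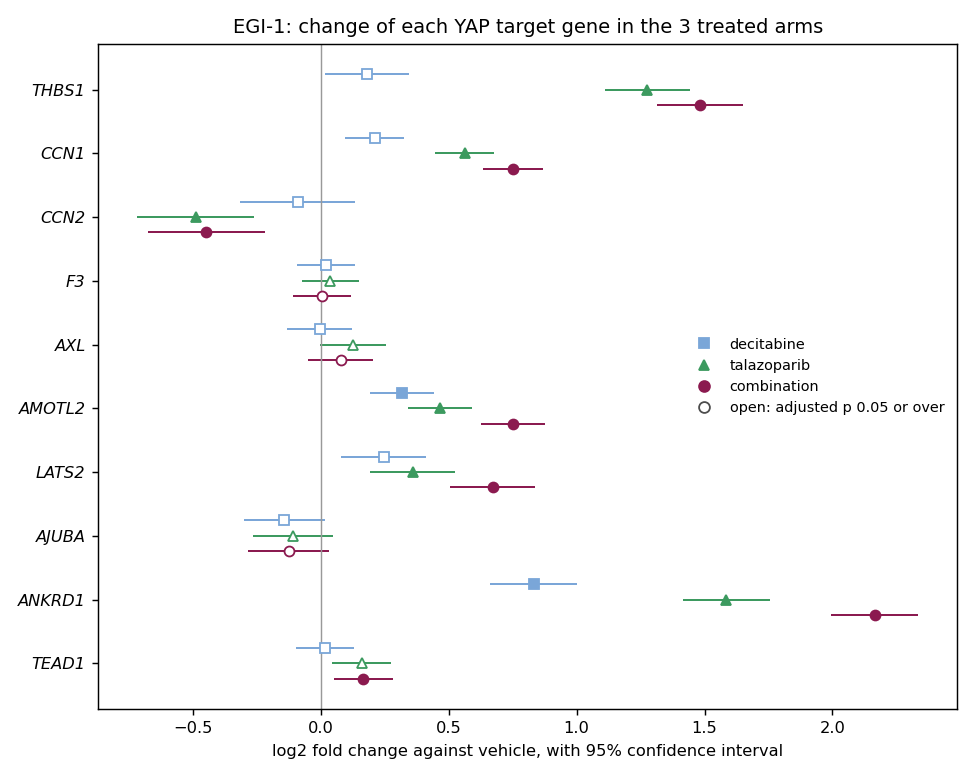
Log2 fold change against vehicle (horizontal axis, with 95% confidence interval from edgeR) of the 10 genes in EGI-1 cells with decitabine, talazoparib or the combination, 2 libraries per arm. Filled symbols have an adjusted p under 0.05. ANKRD1 lies farthest to the right in all 3 arms (0.83, 1.58 and 2.17), THBS1 moves with talazoparib and the combination (1.28 and 1.48), and CCN2 lies to the left of 0 with both.

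Across the single agents in EGI-1, decitabine raised 2 of the 10 members, ANKRD1 and AMOTL2, where 0.549% of all genes passed, 0.522% higher and 0.0268% lower. AMOTL2 had a log2 fold change of 0.32 ± 0.06 (adjusted p = 0.018) with decitabine and did not pass without vehicle replicate 1 or vehicle replicate 2 (adjusted p = 0.423 and 0.307). Talazoparib raised 5 members (ANKRD1, THBS1, CCN1, AMOTL2 and LATS2) and lowered CCN2, where 4.13% of all genes passed, 2.84% higher and 1.29% lower. The median log2 fold change over the 10 members was 0.10 with decitabine and 0.26 with talazoparib, and 0.00 over all genes with each agent. These comparisons share the vehicle libraries.

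Against decitabine alone, the combination was higher in 5 members (THBS1, CCN1, AMOTL2, LATS2 and ANKRD1), where 7.71% of all genes passed, 4.43% higher and 3.27% lower, and the same number passed without combination replicate 2. Against talazoparib alone, the combination was higher in 3 members, where 1.92% of all genes passed, 1.36% higher and 0.558% lower. These were ANKRD1 (log2 difference 0.58 ± 0.08 SE, adjusted p = 0.000276), LATS2 (0.31 ± 0.08, adjusted p = 0.0446) and AMOTL2 (0.29 ± 0.06, adjusted p = 0.0159). Only ANKRD1 passed without combination replicate 2 (0.52, adjusted p = 0.011), and AMOTL2 and LATS2 were also lost without either vehicle library, either talazoparib library or combination replicate 1. CCN2 stood at 17.6 and 21.0 CPM with talazoparib and 21.0 and 19.0 CPM with the combination, and the arms overlapped.

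Whether the combination departed from the added log2 effects of its 2 agents was tested with an interaction term. It passed in 0 of the 10 members by edgeR, where 0.161% of all genes passed, 0.00893% higher and 0.152% lower. By DESeq2 it passed in 0 members and in 44 of all 22393 genes. Without adjustment, 1 member passed at 0.05 by edgeR, ANKRD1, with a departure of -0.25 ± 0.11 (adjusted p = 0.9998). The departure of THBS1 was 0.03, with a 95% confidence interval of -0.21 to 0.26, and the other 8 members lay between -0.05 and 0.13. Without combination replicate 2 the departures of ANKRD1 and THBS1 were -0.31 and -0.02, and 0 members passed.

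In HUCCT1, decitabine split the members. It lowered THBS1 and AXL and raised CCN2, ANKRD1 and AMOTL2, so that 3 of the 10 members were higher and 2 lower. Of all 22468 genes tested, 33.6% passed, 19.6% higher and 13.9% lower, and the median log2 fold change was 0.02 over the members and 0.00 over all genes.

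THBS1 was 21760 and 21640 CPM in HUCCT1 vehicle and 13260 and 12100 CPM with decitabine. AXL was 1215 and 1299 CPM in vehicle and 527 and 534 CPM with decitabine. Both decitabine libraries were below both vehicle libraries in each gene. THBS1 fell by 0.79 ± 0.10 on the log2 scale (to 0.580 of vehicle, adjusted p = 3.63e-07) and AXL fell by 1.26 ± 0.10 (to 0.419 of vehicle, adjusted p = 3.56e-10). Even so, THBS1 with decitabine in HUCCT1 stayed above every EGI-1 library, of which the highest had 3450 CPM.

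CCN2 was 54.1 and 60.4 CPM in HUCCT1 vehicle and 113 and 136 CPM with decitabine. ANKRD1 was 232 and 228 CPM in vehicle and 437 and 418 CPM with decitabine. AMOTL2 was 659 and 794 CPM in vehicle and 916 and 1040 CPM with decitabine. None of the 3 genes overlapped between the arms, but the share of all genes without overlap was not computed. CCN2 rose 2.16-fold (log2 fold change 1.11 ± 0.12 SE, adjusted p = 2.78e-08), ANKRD1 rose 1.85-fold (0.89 ± 0.11, adjusted p = 2.37e-07) and AMOTL2 rose 1.34-fold (0.42 ± 0.11, adjusted p = 0.00401). AMOTL2 did not pass without vehicle replicate 1 (adjusted p = 0.141) or without decitabine replicate 2 (adjusted p = 0.108). LATS2 was 83.6 and 99.8 CPM in vehicle and 102 and 119 CPM with decitabine, a log2 fold change of 0.26 ± 0.12 (adjusted p = 0.0824).

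CCN1, F3, AJUBA and TEAD1 did not pass in HUCCT1, with log2 fold changes between -0.06 and 0.04. CCN1 was 1380 and 1589 CPM in vehicle and 1421 and 1597 CPM with decitabine, and F3 was 1424 and 1508 CPM in vehicle and 1420 and 1411 CPM with decitabine. The widest of their 95% confidence intervals was that of AJUBA, from -0.19 to 0.26.

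**Figure D3:**
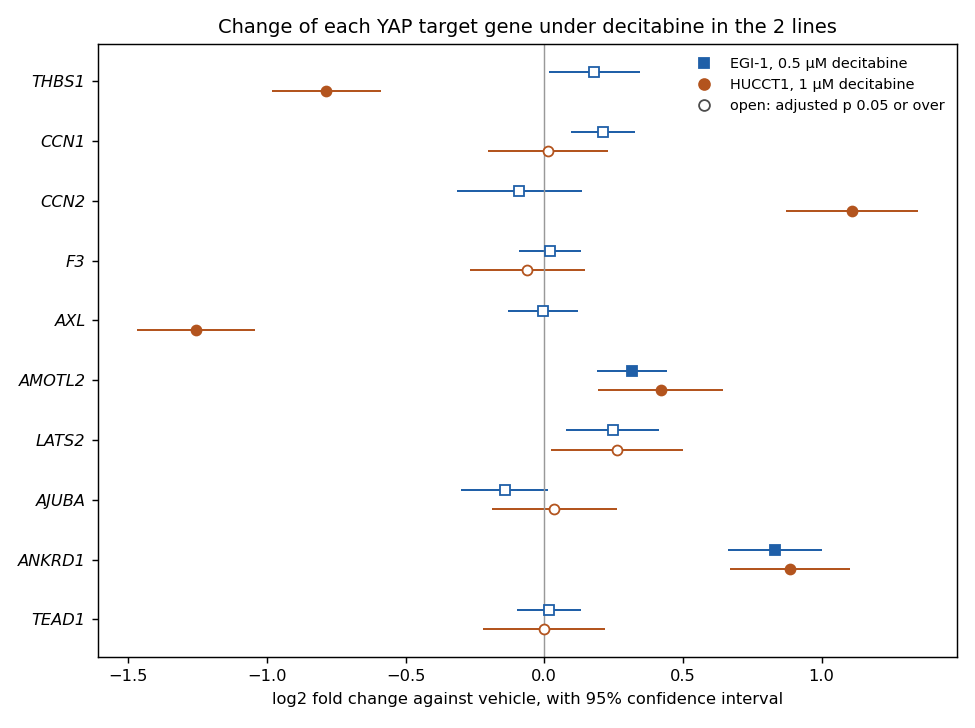
Log2 fold change with decitabine against vehicle (horizontal axis, 95% confidence interval from edgeR) of the 10 genes in EGI-1 (0.5 µM) and HUCCT1 (1 µM), 2 libraries per arm. Filled symbols have an adjusted p under 0.05. ANKRD1 (0.83 and 0.89) and AMOTL2 (0.32 and 0.42) lie to the right of 0 in both lines, while THBS1 (-0.79) and AXL (-1.26) lie to the left and CCN2 (1.11) to the right in HUCCT1.

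The effect of decitabine differed between the lines in 3 of the 10 members by a test of the difference itself, where 15.9% of all 25082 genes passed, 8.74% as higher in HUCCT1 and 7.20% as lower. The effect in HUCCT1 minus the effect in EGI-1 was -0.95 ± 0.11 for THBS1 (adjusted p = 1.96e-06), -1.23 ± 0.10 for AXL (adjusted p = 1.61e-08) and 1.22 ± 0.15 for CCN2 (adjusted p = 8.20e-06), on the log2 scale. For ANKRD1 the difference was 0.07 (95% confidence interval -0.17 to 0.31) and for AMOTL2 it was 0.12 (-0.13 to 0.37). The dose of decitabine differs between the lines, so line, dose, medium and the code in the library names cannot be told apart.

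Several markers of other cell types also differed between the HUCCT1 arms. The 3 endothelial markers summed to 5.47 and 4.10 CPM in vehicle and 24.9 and 26.0 CPM with decitabine. The 5 fibroblast markers (COL1A2, COL3A1, DCN, LUM and PDGFRB) summed to 10.8 and 8.07 CPM in vehicle and 9.34 and 8.52 CPM with decitabine, so the arms overlapped, but single genes went opposite ways. LUM, which made up most of the sum in vehicle, fell from 10.3 and 7.31 CPM to 4.69 and 3.85 CPM, while COL1A2 rose from 1 count in each library to 60 and 46 (at least 16-fold higher) and PDGFRB rose from 0.363 and 0.727 CPM to 2.38 and 2.84 CPM. DCN had 0 counts in vehicle and 12 and 7 with decitabine, at least 2.43-fold higher, and COL3A1 had at most 2 counts. The 7 epithelial markers summed to 14770 and 16580 CPM in vehicle and 9380 and 10740 CPM with decitabine. Among them, KRT7, KRT8, KRT18 and KRT19 fell by 0.59 to 0.90 on the log2 scale and CDH1 rose by 0.73. The 3 leukocyte markers summed to 0.231 and 0.430 CPM in vehicle and 0.906 and 1.08 CPM with decitabine, and the 12 T cell markers to 10.9 and 12.4 CPM in vehicle and 19.6 and 19.03 CPM with decitabine. CD247 rose from 2 and 1 counts to 44 and 47 (at least 14.4-fold), TRBC2 from 0 in both libraries to 23 and 22 (at least 7.53-fold) and CD3E from 0 and 1 to 17 and 23 (at least 5.57-fold). The 3 hepatocyte markers summed to at most 0.231 CPM in HUCCT1. The part of these genes in the results on the members was not tested.

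Other reported YAP targets were measured as a list of 15 genes (MYOF, ASAP1, IGFBP3, CRIM1, FJX1, FOXF2, GADD45A, CCDC80, NT5E, DOCK5, PTPN14, ARHGEF17, NUAK2, TGFB2 and RBMS3). With the combination in EGI-1, 13 were tested, 5 rose, 1 fell and 7 did not pass, where 18.7% of all genes passed, 11.1% higher and 7.62% lower. The median log2 fold change of the list was 0.14. NUAK2, a kinase related to AMPK, went from 25.1 and 23.4 CPM to 63.2 and 60.9 CPM (log2 fold change 1.35 ± 0.08 SE, adjusted p = 3.57e-09), CCDC80 rose by 0.66 ± 0.19 (adjusted p = 0.0197) and ARHGEF17 by 0.45 ± 0.07, while FJX1 fell by 0.27 ± 0.08. Without combination replicate 2, 3 of the list passed, among them NUAK2 (1.37) and ARHGEF17 (0.48), and CCDC80, PTPN14 and FJX1 did not. Without vehicle replicate 1, 2 passed, and without vehicle replicate 2, 3 passed. With decitabine in HUCCT1, all 15 were tested, and 3 rose and 6 fell, where 33.6% of all genes passed, 19.6% higher and 13.9% lower. The median of the list was -0.13, and 6 to 8 genes passed with 1 library left out, the fewest without decitabine replicate 2. ASAP1 and ARHGEF17 passed in 1 and DOCK5 in 2 of the 4 fits that each left out 1 HUCCT1 library. IGFBP3, a binding protein of insulin-like growth factors, went from 410 and 446 CPM to 1373 and 1482 CPM (1.73 ± 0.11, adjusted p = 1.14e-12) and had 0 counts in all 8 EGI-1 libraries. NUAK2 rose by 1.35 ± 0.11, and FOXF2 had 0 counts in both vehicle libraries and 20 and 10 with decitabine, at least 3.48-fold higher over a floor of 3 counts per library. NT5E, which makes adenosine outside the cell, fell by 1.06 ± 0.11, RBMS3 by 1.03 ± 0.18 and CCDC80 by 0.47 ± 0.12.

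Of 22 Hippo kinases and scaffolds, 21 were tested in EGI-1. By edgeR 8 rose and 0 fell with the combination, where 18.7% of all genes passed, 11.1% higher and 7.62% lower. By DESeq2 8 rose and 0 fell, where 2209 of all 22393 genes were higher and 1158 lower. Before adjustment 10 passed by edgeR, and the share of all genes before adjustment is not given. The median log2 fold change of the list was 0.09, and 7 genes passed without combination replicate 2. WTIP, a LIM protein related to AJUBA, went from 6.60 and 7.02 CPM to 19.4 and 16.8 CPM (log2 fold change 1.40 ± 0.20 SE, adjusted p = 0.000409). SAV1, the scaffold of the STK3 and STK4 kinases, rose by 0.61 ± 0.07 and RASSF1, which binds those kinases, by 0.59 ± 0.09. Without combination replicate 2 these values were 1.51 for WTIP, 0.55 for SAV1 and 0.56 for RASSF1, and all 3 passed. With decitabine in HUCCT1, 4 rose and 7 fell among 22, where 33.6% of all genes passed, 19.6% higher and 13.9% lower, and the median of the list was 0.00. SAV1 rose by 0.92 ± 0.11, WTIP by 0.61 ± 0.15 and WWC1 by 0.33 ± 0.11. FAT4, an atypical cadherin at the head of the pathway, went from 154 and 147 CPM to 38.0 and 34.8 CPM (fell by 2.06 ± 0.11, adjusted p = 1.75e-13), AMOT fell by 0.58 ± 0.15 and STK3 by 0.52 ± 0.12. Fewer of this list than these 11 passed without HUCCT1 decitabine replicate 2 or without vehicle replicate 1. Fewer of all genes passed in those fits too. WTIP (adjusted p = 0.0597), WWC1 (0.286) and AMOT (0.0986) were not called without decitabine replicate 2, nor WWC1 without vehicle replicate 1 (0.282).

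The mRNA of YAP1 and WWTR1 passed in no comparison between arms of a line. YAP1 was 238 and 254 CPM in EGI-1 vehicle and 239 and 243 CPM with the combination (log2 fold change -0.04, 95% confidence interval -0.17 to 0.10), and WWTR1 was 54.6 and 53.9 CPM in vehicle and 53.8 and 56.9 CPM with the combination (0.02, -0.14 to 0.18). In HUCCT1, YAP1 was 304 and 326 CPM in vehicle and 289 and 299 CPM with decitabine (-0.11, -0.32 to 0.11), and WWTR1 was 96.0 and 99.9 CPM in vehicle and 81.2 and 83.8 CPM with decitabine (-0.26, -0.48 to -0.04, adjusted p = 0.0683). With decitabine in EGI-1, YAP1 and WWTR1 had log2 fold changes of 0.00 and 0.08, and with talazoparib 0.04 and -0.01. Against decitabine the combination differed by -0.04 for YAP1 and -0.06 for WWTR1, against talazoparib by -0.07 and 0.03, and the departures from added effects were -0.07 and -0.05. The effect of decitabine in HUCCT1 minus that in EGI-1 was -0.09 for YAP1 and -0.32 for WWTR1 (adjusted p = 0.0581). Of the 8 nuclear partners of the list, TEAD2 rose, from 6 and 1 counts to 13 and 19 with the combination (2.23 ± 0.70, adjusted p = 0.0336) and from 6 and 10 counts to 30 and 37 with decitabine in HUCCT1 (2.02 ± 0.48, adjusted p = 0.00179). The rise of TEAD2 in EGI-1 was 3.85 (adjusted p = 0.0442) without vehicle replicate 1 and did not pass without vehicle replicate 2 (1.53, adjusted p = 0.272) or without combination replicate 1 or combination replicate 2 (2.34 and 2.11, adjusted p = 0.078 and 0.158). That in HUCCT1 was 1.69 without vehicle replicate 1 and 2.41 without vehicle replicate 2, and passed in both. VGLL1, a cofactor of TEAD, fell by 0.36 ± 0.12 in HUCCT1 and did not pass without decitabine replicate 2 (-0.27, adjusted p = 0.232) or vehicle replicate 1 (adjusted p = 0.0526). In all, 1 of the 7 partners tested passed in EGI-1 and 2 of 8 in HUCCT1, beside 18.7% and 33.6% of all genes.

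Genes of SRF, another factor that THBS1, CCN1 and CCN2 are known to answer to, were taken as a list of 15. With the combination in EGI-1, 9 of the 13 tested rose and 0 fell by edgeR, where 18.7% of all genes passed, 11.1% higher and 7.62% lower. By DESeq2 8 rose and 0 fell, where 2209 of all 22393 genes were higher and 1158 lower. Before adjustment 11 passed by edgeR, and the share of all genes before adjustment is not given. The median log2 fold change of the list was 0.27 and the lowest was -0.62. With upper-quartile factors 8 rose and 1 fell, and in the fit of the 4 libraries compared alone 11 rose and 1 fell. MYL9, a myosin light chain, went from 2.07 and 1.87 CPM to 8.46 and 7.18 CPM (log2 fold change 1.97 ± 0.19 SE, adjusted p = 1.28e-06), FHL1 rose by 1.78 ± 0.11 and TPM1, a tropomyosin, by 0.75 ± 0.07. Without combination replicate 2, 7 passed, and the values were 2.09 for MYL9, 1.79 for FHL1 and 0.75 for TPM1. With decitabine in HUCCT1, 6 of 14 rose and 1 fell, where 33.6% of all genes passed, 19.6% higher and 13.9% lower. CNN1 went from 4 and 1 counts to 66 and 61 (4.57 ± 0.51, or 5.78 without vehicle replicate 1 and 3.90 without vehicle replicate 2), FHL1 from 6.23 and 7.34 CPM to 54.7 and 51.0 CPM (2.95 ± 0.14, adjusted p = 3.73e-15) and TPM2 rose by 0.90 ± 0.13, while CNN2 fell by 0.33 ± 0.11, a call made in 1 of the 4 fits that each left out 1 library.

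**Figure D4:**
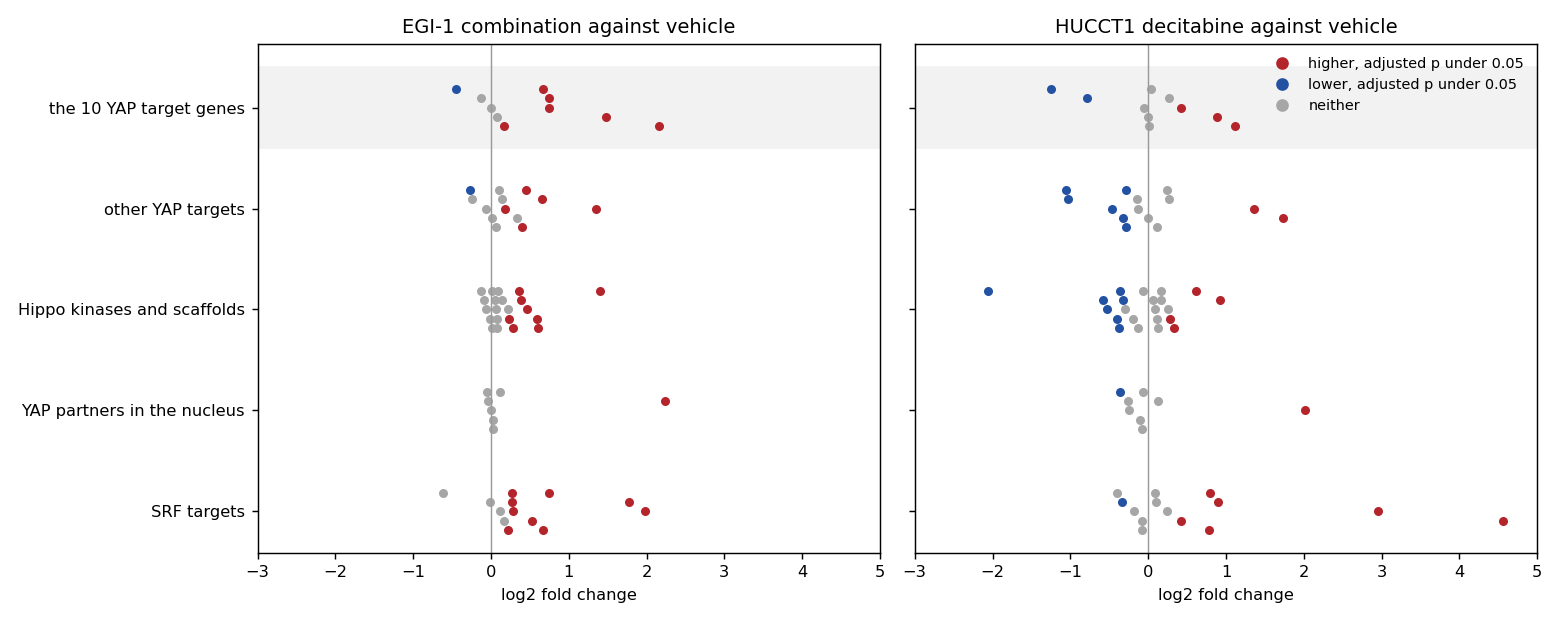
Log2 fold change (horizontal axis) of each tested gene of the 5 lists with the combination in EGI-1 (left) and with decitabine in HUCCT1 (right). Red points were higher and blue points lower at an adjusted p under 0.05, and grey points did not pass. FOXF2 is left out, since it had 0 counts in HUCCT1 vehicle. The Hippo list has 8 red points and no blue one on the left, and 4 red and 7 blue points on the right.

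The relatives, ligands and receptors of the members were 17 genes in all. In EGI-1 with the combination, 4 rose and 1 fell of the 12 tested, where 18.7% of all genes passed, 11.1% higher and 7.62% lower, and 2 rose and 1 fell without combination replicate 2. In HUCCT1 with decitabine, 6 rose and 3 fell of the 14 tested, where 33.6% of all genes passed, 19.6% higher and 13.9% lower. GAS6, the ligand of AXL, fell with decitabine in HUCCT1, as its receptor did. GAS6 was 421 and 481 CPM in vehicle and 165 and 184 CPM with decitabine (log2 fold change -1.38 ± 0.11 SE, adjusted p = 2.33e-10). MERTK, a receptor of the same family, rose there by 1.42 ± 0.20, from 3.40 and 2.78 CPM to 8.84 and 7.77 CPM, and TYRO3, the other one, was 41.6 and 44.8 CPM in vehicle and 45.4 and 42.6 CPM with decitabine. In EGI-1 both receptors rose with the combination, MERTK by 0.61 ± 0.08 (adjusted p = 5.57e-05; 0.65 without combination replicate 2) and TYRO3 by 0.47 ± 0.08 (adjusted p = 0.00046; 0.43 without it), and GAS6 had a log2 fold change of 0.22 (adjusted p = 0.0863). PROS1, another ligand of these receptors, stayed between 0.364 and 6.12 CPM in all libraries.

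CD47, a receptor of thrombospondin-1, fell with decitabine in HUCCT1, from 226 and 200 CPM to 169 and 160 CPM (log2 fold change -0.39 ± 0.11 SE, adjusted p = 0.00742, and 0.106 without vehicle replicate 1 and 0.0907 without decitabine replicate 2), and was 117 and 116 CPM in EGI-1 vehicle and 120 and 132 CPM with the combination. CD36, the other receptor, had at most 7 counts in any library. TFPI, the inhibitor of tissue factor (F3), fell in both lines, by 1.17 ± 0.12 with decitabine in HUCCT1 and by 0.43 ± 0.11 with the combination in EGI-1 (adjusted p = 0.0147). The fall of TFPI in EGI-1 was -0.50 without combination replicate 2 (adjusted p = 0.0436) and did not pass without combination replicate 1 or either vehicle library (adjusted p = 0.0577 to 0.119). TFPI2 went from 6.39 and 6.55 CPM to 37.7 and 44.5 CPM in HUCCT1 (2.66 ± 0.14) and had at most 3 counts in the EGI-1 libraries.

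Of the relatives of CCN1 and CCN2, CCN5 rose in HUCCT1 from 4 and 8 counts to 57 and 69, CCN3 rose from 38 and 46 counts to 95 and 60, and CCN6 had 0 and 1 counts in vehicle and 11 and 12 with decitabine, at least 3.60-fold higher. The rise of CCN3 did not pass without vehicle replicate 1 (0.70, adjusted p = 0.144) or decitabine replicate 1 (0.53, adjusted p = 0.292), and that of CCN6 not without vehicle replicate 1 (adjusted p = 0.096). CCN6 also rose with the combination in EGI-1, from 19 and 13 counts to 35 and 39, but did not pass without any 1 of these 4 libraries (adjusted p = 0.0746 to 0.194), while CCN3 lay between 3.62 and 4.86 CPM in all EGI-1 libraries and CCN4 had at most 7 counts in any library. Among the thrombospondins, THBS2 had 1 and 0 counts in HUCCT1 vehicle and 12 and 11 with decitabine, at least 3.82-fold higher but without a call when vehicle replicate 2 was left out (adjusted p = 0.0952), THBS3 lay between 6.96 and 13.4 CPM in all 12 libraries without a call in either main comparison, and THBS4 had at most 12 counts. Of the relatives of ANKRD1, ANKRD2 rose with the combination in EGI-1 by 0.41 ± 0.13 (adjusted p = 0.0417; 0.43 and 0.122 without combination replicate 2), passing in 3 of the 8 fits that each left out 1 EGI-1 library and at 0.27 without vehicle replicate 2, and ANKRD23 lay at or below 1.58 CPM throughout.

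The genes whose pattern was most like that of THBS1 over the 8 EGI-1 libraries were sought over 8541 genes (those averaging 4 or more on the log2 CPM scale), by the root mean square difference of log2 CPM centred on vehicle. NLRP3, the sensor of an inflammasome, came first at 0.166, before DLG4 at 0.292, NUAK2 at 0.293, KISS1 at 0.295 and FST at 0.301, against a median of 0.979 over all genes compared. Of the other 9 members, ANKRD1 (0.498), CCN1 (0.515) and AMOTL2 (0.562) were nearest and CCN2 (1.32) farthest. NUAK2 is thus both on the list of YAP targets and among these 5. The log2 fold changes of NLRP3 were 0.44 with decitabine, 1.096 with talazoparib and 1.45 with the combination, beside 0.18, 1.28 and 1.48 for THBS1. In HUCCT1, where decitabine lowered THBS1, it raised NUAK2 by 1.35, KISS1 by 1.63 (adjusted p = 3.73e-09) and FST by 1.21 (adjusted p = 1.57e-09), while NLRP3 was at 0.29 (adjusted p = 0.0851) and DLG4 at -0.14 (adjusted p = 0.594). The likeness was chosen on the EGI-1 libraries and is a description.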

How the data were processed

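The authors deposited 1 table of raw counts per gene for 12 libraries, without normalization. The submitters' processing notes name fastp, Trim Galore, HISAT2, featureCounts and GRCh38, while the study's methods name fastp, STAR and RSEM. Whole numbers and the layout are those of featureCounts. Annotation, strand use and the handling of reads matching several genes are not given in the sources used here, so genes that overlap may share reads. The labels and methods also differ on RNA isolation. No column was left without a sample (0 unmapped).

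Identifiers were matched to symbols (60481 of 60651), and 44 copies on the pseudoautosomal part of chromosome Y were left out. Exon lengths and positions come from GENCODE on GRCh38, promoter windows from RefSeq. edgeR 4.0.16 in R 4.3.3 was used with filterByExpr by condition, TMM factors, the robust form of its quasi-likelihood test, and p-values adjusted over all genes tested by Benjamini-Hochberg, with a call at an adjusted p under 0.05. The 8 EGI-1 libraries, the 4 HUCCT1 libraries and all 12 were fitted apart. The script was tested on simulated counts. Where every library of a condition had 3 counts or fewer, a fold was taken against a floor of 3 counts, which covers counting error only. With 2 libraries against 2, the smallest two-sided exact permutation p is 0.333, so no permutation test was used. Arms that do not overlap are therefore a description, and the share of all genes without overlap was not computed. Alternatives were DESeq2 1.42.0, other size factors, no filter, blocks by replicate number or by library name series, fits on fewer or more libraries, and each library left out. Leaving out a library also changed the number of calls over all genes. Counts of members or lists in such fits therefore do not set them apart from other genes.

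The members and lists were chosen with earlier results of these data known. All 10 members are named, together with YAP1, WWTR1 and the relatives, ligands and receptors. From each list, up to 3 genes per direction with the largest called change are named for the combination in EGI-1 and decitabine in HUCCT1. CDH1, the keratins, PTPRC and CD3E were named as markers. TEAD4 and VGLL3 were named after their values were seen.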

Additional observations from a re-analysis of the deposited data

Results flagged for a closer look

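The effect of decitabine differed between the lines in 3 of the 10 genes by the interaction term of edgeR, where 15.9% of all 25082 genes passed. These results are listed because the difference itself passed the test, and the 10 genes were chosen with earlier results of these data known. The effect in HUCCT1 minus that in EGI-1, on the log2 scale, was -0.95 for THBS1, with all 4 HUCCT1 libraries in 2 separate groups and overlapping EGI-1 arms. It was -1.23 for AXL and 1.22 for CCN2, again with separate HUCCT1 arms and overlapping EGI-1 arms. The 3 differences passed in every one of the alternatives run. Line, dose, medium and the code in the library names cannot be told apart. With 2 libraries per condition, no group was large enough to look for single libraries far from the rest of their group.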

How the results depend on the processing

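The 90 log2 fold changes of the 10 genes in 9 comparisons were computed again under 10 to 18 alternatives each, 1470 values in all. None of those that had passed changed sign, 48 lost their call, 25 gained one, and 56 values that passed in neither setting changed sign. The number of genes called stayed within 1.5 times of the reported one except in 2 comparisons. For decitabine against vehicle in EGI-1 (2 genes reported), 1 was called with the block by replicate number, with the block by library name series, in the fit of the 4 libraries compared alone and in the fit of all 12. For the combination against talazoparib (3 reported), 1 was called with the block by replicate number and in the fit of all 12. The cause was not tested. Leaving out 1 library at a time gave 1 to 4 genes in the former and 1 to 5 in the latter. For the combination against vehicle, fewer of the 10 genes were called without combination replicate 2, and so were fewer of all genes.

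Replicate numbers in the labels were not taken to pair the samples, since there are only 2 and correlations of the deviations lay between -0.394 and 0.399. The block by number called 6 genes for talazoparib and 6 for the combination against vehicle, and 6 for decitabine in HUCCT1, where LATS2 gained a call (0.26, adjusted p = 0.000233). Over all genes that block called 655, 3513 and 10177 in these comparisons, in place of 924, 4195 and 7539. As decitabine numbers correlated negatively with those of talazoparib and the combination, a block with them crossed was added after seeing the data; it called 3, 7 and 7 genes for decitabine, talazoparib and the combination against vehicle.

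TEAD1 in the combination passed in 7 of 17 alternatives and LATS2 with talazoparib in 12 of 17. Depth limits TEAD2, CNN1, CCN5, CCN6, THBS2 and FOXF2, which had 10 counts or fewer in some libraries.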
